A study of Mus musculus with 12 samples.

Results

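The cytosolic ribosomal protein genes encode the proteins of the large (60S, names beginning with Rpl) and small (40S, names beginning with Rps) subunits of the ribosome outside mitochondria. They were taken by symbol: every gene whose symbol is Rpl or Rps followed by a number, with an optional letter and an optional pseudogene ending (-ps), plus Rplp0, Rplp1, Rplp2 and Rpsa. The kinase genes whose names begin with Rps6k were left out. This gave 91 of the 24421 gene symbols, 55 of the large and 36 of the small subunit, of which 6 carry the -ps ending. Where a symbol had several transcripts (13 symbols), the transcript with the highest total was used.

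Whole-kidney RNA was sequenced in 12 libraries from male mice 6 weeks old, whose strain the labels give as C57BL/6. The 4 groups of 3 libraries were WT kidneys at baseline (healthy controls), Tet2-/- kidneys at baseline, WT kidneys after ischemia-reperfusion (IR) and Tet2-/- kidneys after IR. Tet2 is an enzyme that oxidises 5-methylcytosine in DNA, and the Tet2-/- mice descend from Tet2+/- breeding pairs with a C57BL/6J background. In the IR model the right renal pedicle was clamped for 60 min and the left kidney removed, and tissue was taken at 24 h of reperfusion, so the injured kidney was the one remaining. The study lists the baseline mice apart from those given IR or sham operation, and no library is labelled as sham-operated. Effects of IR below therefore cannot be told apart from those of anaesthesia, surgery and removal of the left kidney. The part of Tet2 that the allele removes is not given in the sources used here.

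A ribosome carries 1 copy of nearly every one of these proteins, and the genes are among the most strongly transcribed in any cell. Their mRNAs begin with a run of pyrimidines at the 5' end (the TOP motif), through which mTORC1 and Larp1 control their translation. They are also known for their many processed pseudogenes, which are copies of the spliced mRNA inserted elsewhere in the genome.

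Each library held between 51007366 and 107969888 counts over the transcripts kept, 1 per gene symbol. Shares of all counts below are shares of these totals. Replicates of a group differed beyond sampling noise in every pair, so none was counted as a repeat of another. The Tet2 transcript was listed at 9.15, 6.25 and 7.33 FPKM (fragments per kilobase of transcript, scaled to library size) in WT kidneys at baseline and at 9.25, 16.6 and 10.3 FPKM in the libraries labelled Tet2-/-. It was therefore not lower in the latter (log2 fold change 0.76, SE 0.24, adjusted p = 0.321, edgeR's quasi-likelihood test), and the labels of these libraries are not checked by it. After IR it was at 9.34, 3.97 and 3.86 FPKM in WT and at 2.64, 3.20 and 1.76 FPKM in the libraries labelled Tet2-/- (log2 fold change -1.28, SE 0.36, adjusted p = 0.0690 in the same test). All genotype differences below are between libraries as labelled.

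Other cell types differed between the groups. The summed FPKM of 8 neutrophil markers was 0.609 to 2.93 in the 6 baseline libraries, 4.04 to 9.47 in WT after IR and 75.5 to 133.5 in the libraries labelled Tet2-/- after IR. The summed FPKM of 8 proximal tubule markers was 2226 to 2891 at baseline, 1491 to 2027 in WT after IR and 557 to 804 in the libraries labelled Tet2-/- after IR. Library 3 of the latter group stood apart, with 601 FPKM of adipocyte markers against 15.1 to 274 FPKM in the other 11 libraries. It also had 384 FPKM of thick ascending limb markers against 1327 to 2608 FPKM in the other 5 IR libraries. Library 2 of that group also stood apart, with 207 FPKM of 8 macrophage markers against 29.4 to 79.5 FPKM in the other 11 libraries. Its 6 lymphocyte markers summed to 1.43 FPKM against 0.185 to 0.618 FPKM in the other IR libraries and 1.20 to 2.54 FPKM at baseline. Baseline libraries differed as well. Adipocyte markers were at 274 FPKM in library 3 and 134 FPKM in library 2 of WT, against 38.6 to 72.4 FPKM in the rest of the baseline libraries. Thick ascending limb markers were at 758 FPKM in library 2 of WT, against 952 to 1892 FPKM in the rest. In whole tissue, fewer cells of a type and less RNA per cell cannot be told apart, and the part of these shifts in the results below was not tested.

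The ribosomal protein genes took a small share of all counts, and that share was highest in the libraries labelled Tet2-/- after IR. It was 0.985%, 1.17% and 0.851% in WT kidneys at baseline (mean 1.003% ± 0.162, SD, n = 3) and 1.14%, 0.975% and 1.14% in the libraries labelled Tet2-/- at baseline (1.09% ± 0.0969, SD, n = 3). After IR it was 1.10%, 1.18% and 1.18% in WT (1.15% ± 0.0488, SD, n = 3) and 1.27%, 1.63% and 1.84% in the libraries labelled Tet2-/- (1.58% ± 0.288, SD, n = 3). The baseline groups overlapped, and the last group lay above the other 3 without overlap. Its lowest library was library 1 and its highest was library 3, and libraries 2 and 3 are those that stood apart. The mean was 1.56% without library 2 and 1.45% without library 3. Without Rpl34 and Rpl34-ps1 the means were 1.002%, 1.07%, 1.15% and 1.56%.

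**Figure D1:**
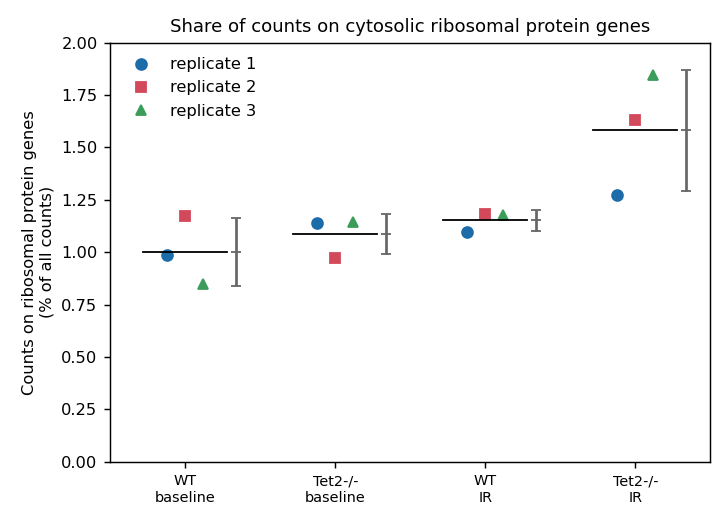
Percent of all counts on the 91 ribosomal protein genes in each library, by group. Points are libraries with their replicate number, black lines are group means and grey bars are ± 1 SD (n = 3). The libraries labelled Tet2-/- after IR sit between 1.27% and 1.84%, above the other 9.

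Levels differed widely among the genes. Per length, the 5 highest over the 12 libraries were Rplp1 at a mean of 761 FPKM, Rps15 at 598, Rpl41 at 585, Rpl8 at 553 and Rpl32 at 488 FPKM. Rplp1 encodes an acidic stalk protein, and Rpl41 encodes the smallest protein of the ribosome. The 5 lowest were Rpl3l at 1.97, Rps13 at 1.30, Rpl29 at 1.10, Rpl39l at 0.0046 and Rpl10l at 0 FPKM in every library. Rpl10l and Rpl39l are paralogs known from the testis and Rpl3l is one known from striated muscle, whereas Rps13 and Rpl29 belong to every ribosome. Rps6, the substrate of the S6 kinases, was also listed at only 5.55 to 8.11 FPKM. Rpl10l and Rpl39l had too few counts to be tested, which leaves 89 genes in each comparison, and every other member passed the filter on low counts.

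Genes with exact copies elsewhere in the genome were listed at lower levels. Of 81 genes whose coding sequence was found in the mouse annotation of build mm9, 72 had at least 1 copy outside the gene at 90% identity or more over at least 80% of the coding sequence. The 19 genes with a copy identical over that alignment had a median level of 11.8 FPKM (1.30 to 57.5). The 53 whose closest copy was less than 100% identical had a median of 100.8 FPKM (0 to 761), and the 9 with no copy found had a median of 167 FPKM. Over the 81 genes, the share of 100-base windows of the transcript found elsewhere and the mean FPKM had a Spearman rho of -0.496, a description across genes that share libraries. With 50-base windows rho was -0.281 and with the number of copies -0.250. Rps13, Rpl10, Rpl12 and Rpl10a are among the genes with an exact copy. How reads matching several places were counted is not given in the sources used here, so levels and changes of genes with copies are uncertain, and the part of the copies in the levels was not tested.

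**Figure D2:**
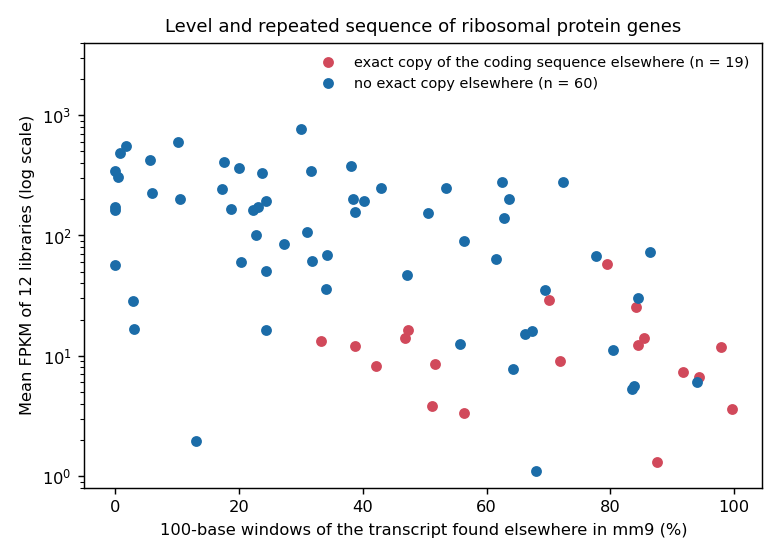
Mean FPKM over 12 libraries (log axis) against the percent of 100-base windows of the transcript that occur elsewhere in mm9, for the 79 searched genes with a level above 0.01 FPKM. Red points have an exact copy of the coding sequence elsewhere (n = 19) and lie at or below 57.5 FPKM, while blue points (n = 60) reach 761 FPKM.

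At baseline, Rpl34 and its listed pseudogene Rpl34-ps1 were the only ribosomal protein genes, and the only genes in the fit, that edgeR called different between genotypes. Rpl34 encodes a protein of the large subunit. Rpl34 (mm9 chr3:130429745-130433255, minus strand) and Rpl34-ps1 (chr3:130429755-130433247, minus strand) are listed at the same place, so they share reads and stand for 1 measurement. Rpl34 has 10 copies elsewhere at 91.3% to 99.4% identity, the closest on chromosome 6 (chr6:71074604-71074957, 99.4% identity over 354 coding bases). That closest copy differs at T132C and C318G, counted from 1 at the first coding base, with the base of Rpl34 first. A stretch of 60 coding bases (102 to 161) is shown because it holds 1 of these differences, in capitals, and the copy's stretch is chr6:71074705-71074764 of mm9, plus strand.
Rpl34: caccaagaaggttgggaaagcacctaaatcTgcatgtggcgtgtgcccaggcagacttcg
closest copy: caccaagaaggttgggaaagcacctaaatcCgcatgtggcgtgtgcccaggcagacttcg

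Rpl34 was at 3.16, 3.83 and 2.54 FPKM in WT kidneys at baseline and at 86.2, 74.6 and 83.8 FPKM in the libraries labelled Tet2-/-. The difference was 4.77 on the log2 scale (SE 0.18, adjusted p = 0.000234, edgeR). Rpl34-ps1 was at 2.15, 3.10 and 1.32 FPKM against 125.9, 108.0 and 121.9 FPKM, a log2 difference of 5.85 (SE 0.31, adjusted p = 0.00108, edgeR). Neither pair of groups came near to overlapping. After IR, Rpl34 was at 4.10, 4.18 and 4.71 FPKM in WT and at 87.4, 115.6 and 132.6 FPKM in the libraries labelled Tet2-/- (log2 fold change 4.59, SE 0.23, adjusted p = 0.00145, edgeR). Rpl34-ps1 was at 2.499, 2.97 and 2.71 FPKM against 125.8, 168.8 and 194.4 FPKM (log2 fold change 5.81, SE 0.24, adjusted p = 0.000652, edgeR). IR itself did not change Rpl34 past the test in either genotype (log2 fold changes 0.39 and 0.20, adjusted p = 0.390 and 0.389, edgeR). In all 6 libraries labelled Tet2-/- Rpl34 was thus above all 6 WT libraries, unlike Tet2 itself. Rpl34 and Tet2 (chr3:133126641-133207354) lie on the same chromosome with 2693385 bases between them. Of 17 tested genes from Rpl34 to Tet2, the pair alone was called at baseline. After IR the pair was higher and Hadh, Papss1 and Ppa2 were lower, beside 3.51% of all tested genes higher and 6.17% lower.

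Beyond this pair, the baseline genotypes could not be separated gene by gene. With edgeR, 2 of 89 members were called higher at an adjusted p under 0.05, and 0 lower, beside 0.0124% of all tested genes called higher and 0.0% lower. Without the pair the count was 0, and 1 of the remaining 87 had an unadjusted p under 0.05 (Rps4l, log2 fold change -0.75, SE 0.25, adjusted p = 0.338), as had 1891 of all 16086 genes. DESeq2 called 0 of the 87, beside 521 of all genes. The log2 fold change was above 0 in 81 of 89 members, with a median of 0.19 beside 0.00 over all genes. That median fell to 0.06 when the trend of fold change with transcript length was taken out, and it was 0.08 without library 3 of WT and 0.32 without library 2 of WT. The members are short, with a median of 693 bases against 2695 for all tested genes, and over the other genes length and fold change had a rho of -0.283 in this comparison.

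**Figure D3:**
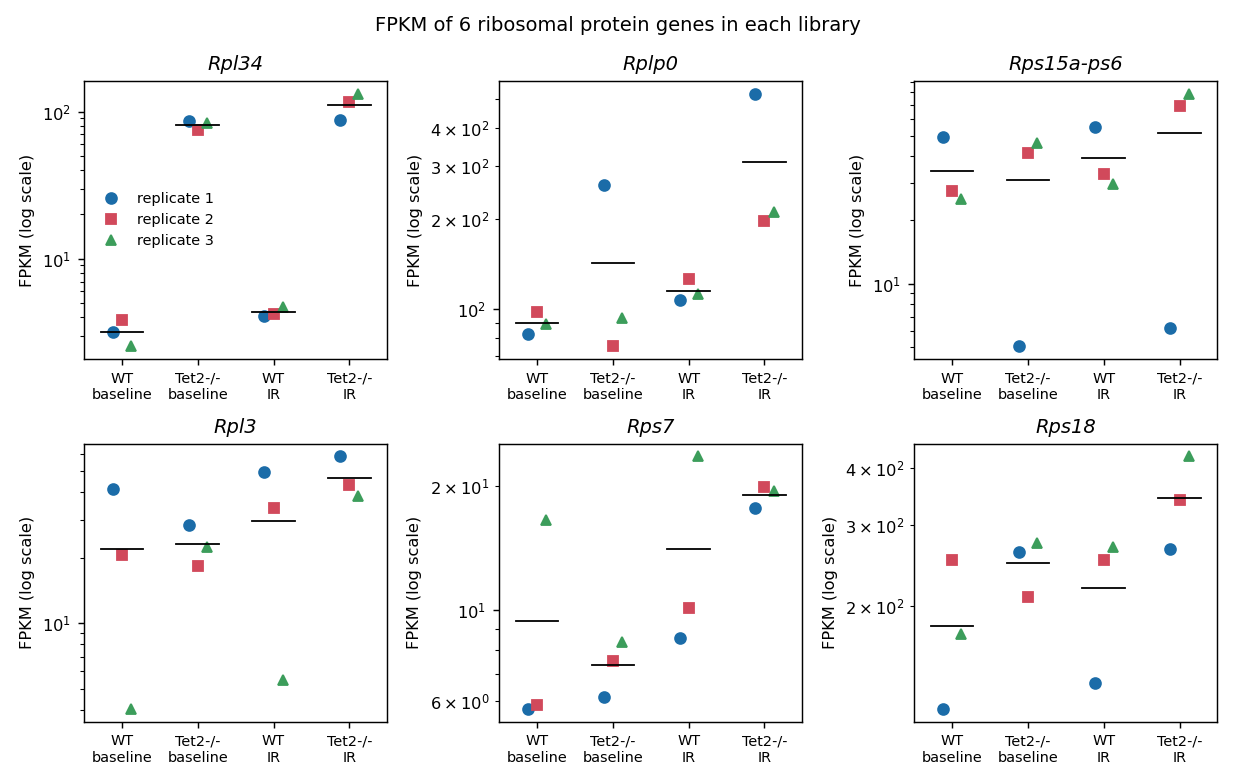
FPKM (log axes, ranges differ) of 6 ribosomal protein genes in each of 12 libraries, by group. Symbols and colours give the replicate number and black lines are group means. Rpl34 separates the genotypes, from 2.54 to 4.71 FPKM in WT and from 74.6 to 132.6 FPKM in the libraries labelled Tet2-/-. In the other 5 genes 1 numbered library often lies apart at baseline and after IR.

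Some members followed the replicate number rather than the group, and they were picked after their values were seen. In 5 of 89 members (5.62%), 1 numbered library of a genotype stood at least 2-fold from both others, on the same side at baseline and after IR. The same was seen in 1.89% of 12196 genes with a mean of at least 1 FPKM. Rplp0, the base of the stalk and a common reference gene for PCR, was at 259, 75.1 and 93.0 FPKM in libraries 1 to 3 labelled Tet2-/- at baseline and at 520, 196 and 210 FPKM after IR. Library 1 was the high one both times, and in WT all 6 values lay between 82.6 and 125.4 FPKM. Rpl3, which lines the peptidyl transferase centre, was at 41.4, 20.5 and 4.03 FPKM in WT at baseline and at 49.8, 33.7 and 5.47 FPKM after IR, with library 3 low both times. Rps7 was high in library 3 of WT, at 5.74, 5.89 and 16.5 FPKM at baseline and at 8.53, 10.1 and 23.6 FPKM after IR. The pseudogene entry Rps15a-ps6 was low in library 1 labelled Tet2-/-, at 5.06 against 41.3 and 46.3 FPKM at baseline and at 6.19 against 68.9 and 78.9 FPKM after IR. Rps15a-ps4 was low in library 1 of WT and high in library 1 labelled Tet2-/-. Rps18, which did not meet that rule, was at 118.8 and 135.7 FPKM in library 1 of WT against 172.9 to 268.9 FPKM in libraries 2 and 3. These genes had wide errors in the group comparisons, for example 0.90 on the log2 scale for Rpl3 between WT at baseline and after IR. Over the 89 members, deviations from the group mean correlated between same-numbered libraries at 0.428 to 0.826 in WT and 0.632 to 0.778 in the libraries labelled Tet2-/-. Over other genes these values were 0.340 to 0.387 and 0.0803 to 0.316. They are descriptions across genes.

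In WT kidneys, no ribosomal protein gene was called changed by IR. EdgeR called 0 of 89 higher and 0 lower, beside 1.88% of all tested genes called higher and 1.14% lower, and 9 members had an unadjusted p under 0.05, as had 3640 of all 16015 genes. DESeq2 called 3 members and 1975 of all genes. Rpl12, which sits at the base of the stalk, was nearest to the threshold, at 8.09, 8.45 and 6.11 FPKM at baseline and at 12.7, 17.0 and 13.4 FPKM after IR. These groups did not overlap (log2 fold change 0.86, SE 0.20, adjusted p = 0.0692, edgeR). With the replicate number as a block 1 member was called higher (Rpl12, adjusted p = 0.0447) and 1 lower (Rps4l, adjusted p = 0.0409). The median log2 fold change of the members was 0.14 beside -0.03 over all genes, and 68 of 89 lay above 0. That median was 0.029 without library 3 of WT at baseline, 0.07 without library 3 of WT after IR and 0.28 without library 2 of WT at baseline.

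In the kidneys labelled Tet2-/-, 12 members rose with IR and 5 fell. Beside this, 22.9% of all tested genes were called higher and 20.3% lower, against 13.5% and 5.62% of the 89 members, both below the background with this scaling. With an absolute log2 fold change over 1 in addition, 3 members were higher and 1 lower, beside 12.7% and 11.6% of all genes. The 12 were Rpl12, Rps7, Rpl10a, Rps23, Rpl13, Rps12, Rpl3, Rps4x, Rpl41, Rpsa, Rps16 and Rps3, and the 5 were Rpl3l, Rpl27a, Rpl35a, Rpl15 and Rpl5. The small subunit had 7 higher and 0 lower of 36, and the large subunit 5 and 5 of 53. The median log2 fold change of the members was 0.25 beside 0.04 over all genes.

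This split depended on the scaling. Library sizes alone moved the median of all genes from 0.04 to 0.27, and 29 members (32.6%) were then higher and 3 (3.37%) lower, with a members' median of 0.46. In that fit 32.2% of all genes were higher and 14.1% lower, so the members' share of higher calls was near the background. With the length trend taken out, 41 (46.1%) were higher and 4 (4.49%) lower, with a median of 0.51 beside 0.04, and 23.7% of all genes were higher and 20.5% lower. The members' share of higher calls was then above the background, while their share of lower calls was below it in all 3 fits. Without library 3 labelled Tet2-/- after IR, 8 were higher and 6 lower and the median was 0.05. Without library 2 of that group, 8 were higher and 3 lower and the median was 0.29. Without library 2 or library 3 labelled Tet2-/- at baseline, 4 were higher and 3 lower, with medians of 0.14 and 0.296.

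Rpl12 had the largest rise. It was at 7.49, 6.83 and 8.62 FPKM at baseline and at 24.6, 27.9 and 27.7 FPKM after IR in the libraries labelled Tet2-/- (log2 fold change 1.55, SE 0.17, adjusted p = 0.000549, edgeR). Rps7, which can bind the p53 regulator Mdm2, was at 6.13, 7.51 and 8.33 FPKM and then at 17.7, 19.9 and 19.4 FPKM (1.11, SE 0.17, adjusted p = 0.00215, edgeR). Rpl10a, a protein of the L1 stalk, was at 16.0, 16.6 and 20.4 FPKM and then at 41.1, 44.9 and 44.0 FPKM (1.04, SE 0.15, adjusted p = 0.00137, edgeR). In each of these 3 genes every IR library lay above every baseline library. Rps23, near the decoding centre, rose by 0.94 on the log2 scale (SE 0.23, adjusted p = 0.0149, edgeR), from a mean of 3.84 to 8.75 FPKM. Rpl13 rose by 0.87 (SE 0.23, adjusted p = 0.0180, edgeR), from 10.9 to 23.5 FPKM. The other 7 that rose had log2 fold changes of 0.59 to 0.85, Rpsa (a small subunit protein also known as the laminin receptor) at 0.71, Rps3 at 0.59 and Rpl3 at 0.77 among them.

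Among the genes that fell, Rpl27a was at 15.9, 14.6 and 14.6 FPKM at baseline and at 7.45, 11.3 and 10.01 FPKM after IR (log2 fold change -0.91, SE 0.17, adjusted p = 0.00506, edgeR). Rpl15 was at 14.1, 14.4 and 13.3 FPKM and then at 9.57, 13.2 and 9.23 FPKM (-0.65, SE 0.13, adjusted p = 0.00697, edgeR), so its groups nearly met. Rpl35a, mutated in some families with Diamond-Blackfan anaemia, was at 225, 172 and 179 FPKM and then at 97.4, 122.5 and 161.8 FPKM (-0.84, SE 0.22, adjusted p = 0.0195, edgeR). Rpl3l, the muscle paralog, fell by 1.14 (SE 0.31, adjusted p = 0.0201, edgeR) at a level of 0.931 to 2.48 FPKM. The summed FPKM of 5 skeletal muscle markers, also low, was 0.995 to 1.47 at baseline and 0.507 to 0.81 after IR in the same libraries. The part of that shift in the fall of Rpl3l was not tested. Rpl5, which carries the 5S rRNA and binds Mdm2, fell by 0.59 (SE 0.19, adjusted p = 0.0418, edgeR), and its groups overlapped in FPKM. Its partner Rpl11 was not called (0.34, SE 0.21, adjusted p = 0.217, edgeR).

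Of the 12 genes that rose, 5 have an exact copy elsewhere, as have 3 of the 5 that fell, among 19 such genes. Leaving out every gene with an exact copy, a choice made after seeing the data, left 7 higher and 2 lower, among them Rpl41, which was not among the 81 genes searched. Of the genes searched and found without an exact copy, 6 were higher and 2 lower. Rpl12, Rpl10a, Rps12 and Rpl27a kept their calls in all 16 other fits and Rps7 in 15, failing in the fit of all 12 libraries. Rpl15 lost its call with library sizes alone and with limma on FPKM, and Rpl5 in 9 of the 16. Calls of the other 10 were lost in 2 to 5 of them, mostly where 1 library was left out, and each of the 6 libraries in this comparison ended at least 1 call when left out.

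**Figure D4:**
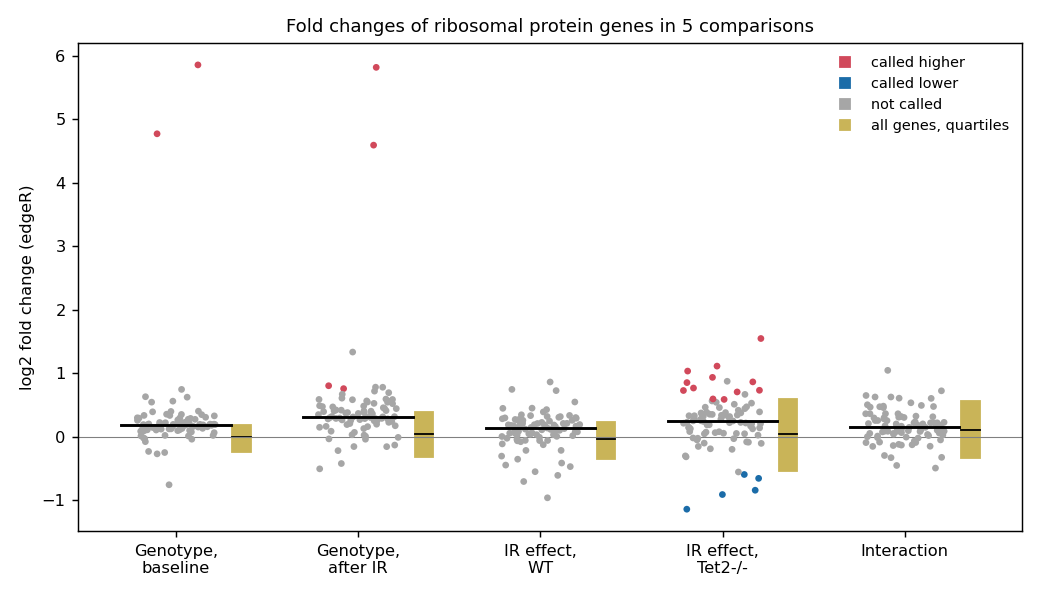
Log2 fold changes (edgeR) of the 89 tested ribosomal protein genes in 5 comparisons. Each point is a gene, coloured by its call at an adjusted p under 0.05. Thick black lines are the members' medians (0.19, 0.32, 0.14, 0.25 and 0.15 from left to right), and ochre boxes give the quartiles and median of all tested genes.

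The starts of 5 of these genes are shown because a pyrimidine run at the 5' end of the mRNA is the mark of TOP mRNAs. A pair of them rose and 3 fell after IR in the libraries labelled Tet2-/-. The RefSeq table lists 1 start for each but Rpl35a, which has 3 and is shown at the first, and the 40 bases run from 20 before to 20 after it (build GRCm38.p6, not the build of the counts). Capitals mark the longest run of C and T that touches the 5 bases on either side of the start, so a marked run can lie before the mRNA begins. Rpl12 is chr2:32961692-32961731 on the plus strand and Rps7 chr12:28635934-28635973 on the minus strand. Rpl27a is chr7:109519175-109519214 on the plus strand and Rpl15 chr14:18270967-18271006 on the minus strand. Rpl35a is chr16:33056433-33056472 on the plus strand.
Rpl12, rose: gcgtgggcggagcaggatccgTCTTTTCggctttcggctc
Rps7, rose: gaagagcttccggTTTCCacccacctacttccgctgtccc
Rpl27a, fell: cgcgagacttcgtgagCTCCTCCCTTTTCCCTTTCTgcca
Rpl15, fell: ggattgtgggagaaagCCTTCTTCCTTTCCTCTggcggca
Rpl35a, fell: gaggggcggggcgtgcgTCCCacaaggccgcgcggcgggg

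The runs are 7 and 5 bases long in Rpl12 and Rps7 and 20, 17 and 4 in Rpl27a, Rpl15 and Rpl35a, so genes that fell have both the longest and the shortest run shown. Among other genes that rose, the run is 7 bases in Rpl10a, 6 in Rps23, 4 in Rpl13 and 2 in Rps12. The marked runs of Rps7, Rpl10a and Rps12 lie wholly before the start used, and that of Rpl35a reaches only the first base after it. These lengths are therefore a description of the DNA around the start and not lengths of a TOP motif. Of the 91 members, 65 had an entry in the table, with 77 starts among 32851. A run of 8 or more was found at 32.5% of the members' starts and 9.72% of all starts. In the window from 250 bases before to 50 after the start, on either strand, GGGCGG was found in 58.4% of the members' windows against 35.7% of all. CTTCCG was found in 58.4% against 16.9%, and CTTTCC in 49.4% against 26.6%. None of these 3 motifs contains another. A match is a description and not a binding site.

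After IR, the libraries labelled Tet2-/- had 4 members higher than WT and 0 lower, beside 3.51% of all tested genes higher and 6.17% lower. Apart from the Rpl34 pair these were Rpl10a and Rpl12, while Rpl13 and Rps12 were not called here but were called higher in 7 and 6 of the 16 other fits. Rpl10a was at 21.0, 27.2 and 23.7 FPKM in WT and at 41.1, 44.9 and 44.0 FPKM in the libraries labelled Tet2-/- (log2 fold change 0.76, SE 0.14, adjusted p = 0.0229, edgeR). Rpl12 was at 12.7, 17.0 and 13.4 FPKM against 24.6, 27.9 and 27.7 FPKM (0.80, SE 0.16, adjusted p = 0.0306, edgeR). The groups did not overlap in either gene, but both calls were lost without library 1 or 3 of WT or without any library labelled Tet2-/-, with adjusted p of up to 0.0745 and 0.105. With a log2 fold change over 1 in addition, only the Rpl34 pair was left, beside 2.3% of all genes. The log2 fold change was above 0 in 80 of 89 members, with a median of 0.32 beside 0.04 over all genes and 0.32 without the pair. Without library 3 labelled Tet2-/- that median was 0.14, and 0.48 without library 1 of that group.

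The difference between the genotypes in their response to IR was not called for any member. EdgeR called 0 of 89 higher and 0 lower, beside 3.79% and 5.39% of all tested genes, 5 members and 4551 of all 16741 genes had an unadjusted p under 0.05, and DESeq2 called 1 member, Rpl15, lower among 2810 genes called in either direction. Rpl10a (interaction 0.63, SE 0.20, adjusted p = 0.0722) and Rpl12 (0.73, SE 0.24, adjusted p = 0.0840) were nearest with edgeR, and both were called when the length trend was taken out. With the replicate block, 2 others were called higher, Rps4l (1.001, adjusted p = 0.0365) and Rplp0 (0.68, adjusted p = 0.0443). The members' median interaction was 0.15 beside 0.10 over all genes, 0.29 beside 0.24 with library sizes alone and 0.365 beside 0.06 with the length trend taken out. With 1 library left out it ranged from -0.04 (without library 2 of WT at baseline) to 0.27 (without library 1 labelled Tet2-/- after IR), and it was -0.02 without library 3 of the latter group.

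The stalk proteins recruit elongation factors. Rplp1 was at 472 to 827 FPKM in WT at baseline, 532 to 774 in the libraries labelled Tet2-/- at baseline, 570 to 778 in WT after IR and 616, 1147 and 1515 FPKM in the last group. Its IR effect there was 0.53 (SE 0.34, adjusted p = 0.245, edgeR). Rplp2 gave 0.38 (SE 0.22, adjusted p = 0.201) and Rplp0 0.88 (SE 0.55, adjusted p = 0.234) in the same test. None of these passed.

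Paralog pairs differed in the order of their levels. Rpl3l was below Rpl3 and Rpl10l below Rpl10 in every library, and Rpl39 was at 58.1 to 169.2 FPKM with Rpl39l at 0.018 FPKM or less. Rps27l, a p53 target, was listed in the reverse order, at 116 to 217 FPKM beside 2.26 to 5.13 FPKM for Rps27. Of the 100-base windows of Rps27, 99.6% occur elsewhere, and it has 13 copies with an exact one among them. For Rps27l these values are 0% and 0 copies, so the order of this pair is uncertain. Rpl22 and Rpl22l1 were close, at means of 57.1 and 46.6 FPKM over the 12 libraries, and their order changed between libraries. Rpl7 was at 273 to 445 FPKM and Rpl7l1, which acts in ribosome assembly, at 25.1 to 34.1 FPKM. Of these paralogs and partners, Rpl3 and Rpl3l were called in the libraries labelled Tet2-/- with IR, and in opposite directions. Other genes with known roles were not called there: Rps6 (-0.30, SE 0.15, adjusted p = 0.139), Rps19 (0.23, SE 0.27, adjusted p = 0.514), Rpl13a (0.36, SE 0.24, adjusted p = 0.263) and the ubiquitin fusion Rps27a (0.46, SE 0.23, adjusted p = 0.138), all with edgeR.

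**Figure D5:**
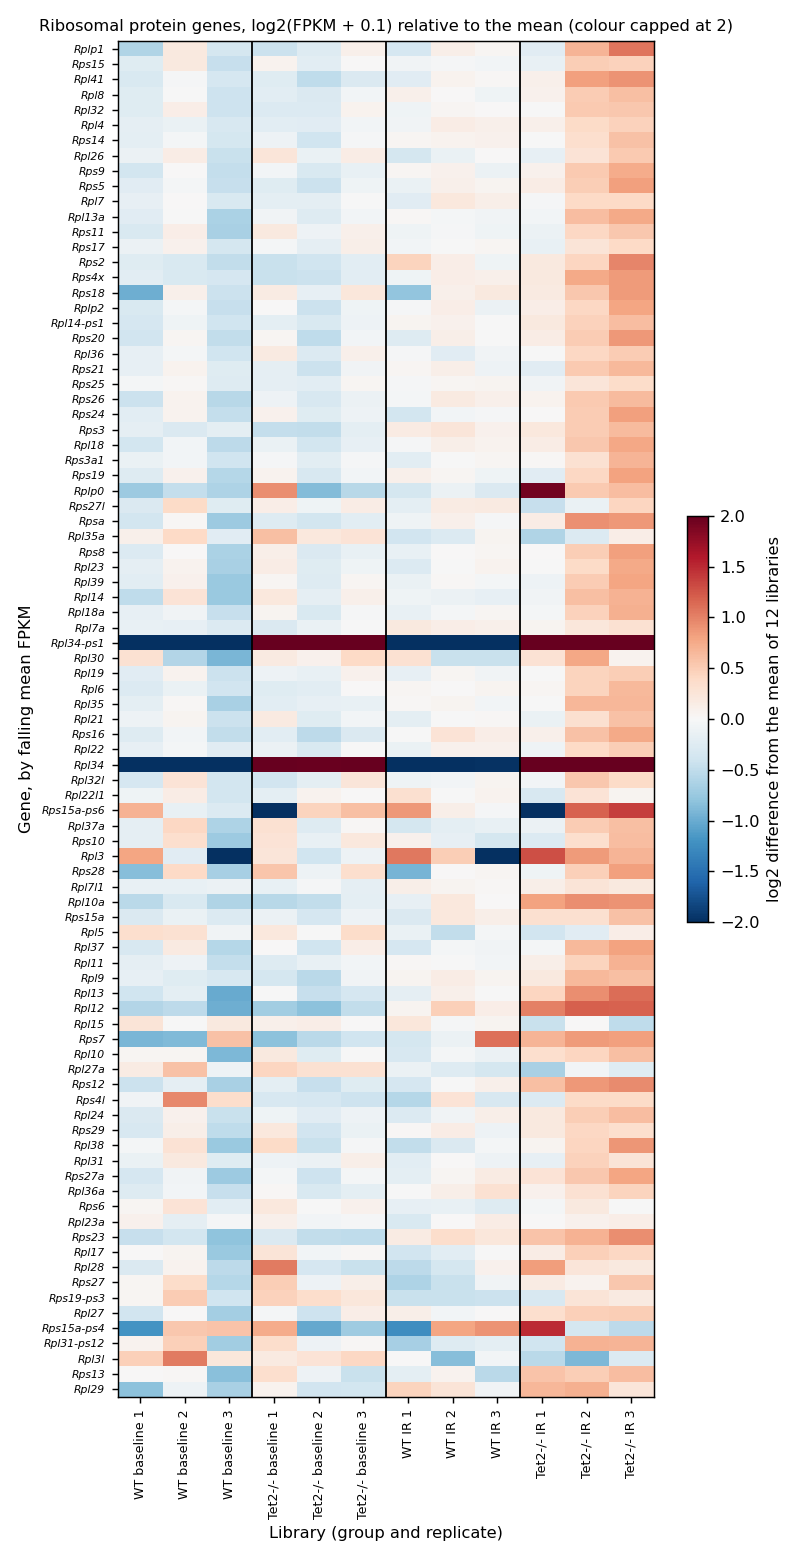
Log2(FPKM + 0.1) of the 89 ribosomal protein genes with a mean of at least 1 FPKM, minus the gene's mean over 12 libraries, in each library (columns) with the genes ordered by falling mean FPKM (rows). Colours are capped at 2 either way. Libraries 2 and 3 labelled Tet2-/- after IR are red in most rows, and the Rpl34 pair separates the genotypes.

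Among the genes that build the ribosome, a larger share passed the test. Of 41 ribosome biogenesis genes, 29 rose and 0 fell with IR in the libraries labelled Tet2-/-, with a median log2 fold change of 0.70, beside 22.9% of all tested genes higher and 20.3% lower in that comparison. Ddx21, a nucleolar helicase, rose by 1.78 (SE 0.18), Nop56, a core protein of box C/D snoRNPs, by 1.57 (SE 0.18), and Eif6, which keeps the subunits apart, by 1.97 (SE 0.20), with adjusted p of 0.000400, 0.000625 and 0.000402 from edgeR. In WT, 4 of the 41 rose (Fbl, Rrp12, Eif6 and Myc) and 0 fell, beside 1.88% of all tested genes higher and 1.14% lower. Of 77 mitochondrial ribosomal protein genes, 4 rose and 26 fell with IR in the libraries labelled Tet2-/- (median -0.35, or -0.17 with the length trend taken out), where the lower calls were above and the higher calls below that background. None of the 77 was called in WT, where 9 had an unadjusted p under 0.05 and DESeq2 called 2, beside 3640 and 1975 of all 16015 genes. In the interaction, 0 mitochondrial ribosomal genes were called higher and 4 lower (Mrpl4, Mrpl42, Mrps36 and Mrps5), and 2 of the 41 biogenesis genes (Dkc1 and Ddx21) were higher, shares near the 5.39% lower and 3.79% higher of all tested genes. Of 22 translation factors and other TOP mRNAs, 8 rose and 1 fell with IR in the libraries labelled Tet2-/- (median 0.18, or 0.34 with the length trend taken out), again beside 22.9% and 20.3% of all genes, Npm1 by 0.93 (SE 0.13) and Hnrnpa1 by 0.92 (SE 0.11) at the top.

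Of 26 mTORC1 signalling genes, 8 rose and 9 fell with IR in the libraries labelled Tet2-/-, beside the same 22.9% and 20.3% of all genes. Eif4ebp1, the translation repressor that mTORC1 inactivates, rose in both genotypes, from a mean of 11.8 to 32.1 FPKM in WT (log2 fold change 1.38, SE 0.26, adjusted p = 0.0432, edgeR) and from 12.2 to 105.3 FPKM in the libraries labelled Tet2-/- (2.86, SE 0.28, adjusted p = 0.000379, edgeR). The interaction was 1.52 (SE 0.40, adjusted p = 0.0394, edgeR). Ddit4, an inhibitor of the pathway, fell by 2.33 (SE 0.23, adjusted p = 0.000397, edgeR) in the libraries labelled Tet2-/-, from 101.9 to 24.5 FPKM. In WT it went from a mean of 120.2 to 20.4 FPKM (-2.63, SE 0.55, adjusted p = 0.0566, edgeR), and the interaction was not called (0.34, SE 0.62, adjusted p = 0.770, edgeR). Of 5 further ribosomal protein genes outside the symbol pattern, Gnb2l1 alone was called in that comparison, where it rose by 0.71 (SE 0.21, adjusted p = 0.0283, edgeR).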

How the data were processed

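RNA-seq reads had been aligned to mm9 with STAR and counted over RefSeq transcripts with HOMER, per the study's methods. The authors deposited estimated counts per transcript, in steps of 0.5, with the transcript length in bases as another column, and FPKM values per transcript. Estimated counts were rounded and tested with edgeR 4.0.16 (TMM, filterByExpr, quasi-likelihood test, Benjamini-Hochberg adjustment over all genes; 1 row per symbol) in R 4.3.3. Each pairwise fit held 6 libraries and the interaction all 12. A call is an adjusted p under 0.05. DESeq2 1.42.0, limma 3.58.1 on log2(FPKM + 1) and log2(FPKM + 0.1), other scalings and filters, a length offset, the replicate block and leaving out each library were alternatives. The fits were also run on simulated counts with independent libraries and with changes larger than those of all members but the Rpl34 pair. That setting cannot show how the fits do on changes of the members' size. SE is the log2 fold change over the root of F. Copies were searched with BLAST 2.17.0 in mm9.

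Same-numbered WT libraries at baseline and after IR deviated together (correlations 0.387, 0.340 and 0.368 over 13643 other genes). The numbers entered only the alternative fits with the replicate block. The study lists separate mice for the baseline condition and for IR or sham operation, so same-numbered libraries are not from the same animal. The libraries numbered 3 after IR, of different genotypes, also correlated at 0.395. What the numbers stand for is not given in the sources used here. The study gives n = 3 kidneys in each genotype and condition, and the labels name no animals. Genes were named by a rule: the Rpl34 pair, paralogs and partners, stalk genes, 7 genes with textbook roles, the 5 highest and 5 lowest levels, and up to 5 called genes in each direction. Others were chosen after their values were seen. The members and lists were chosen with earlier results of these data known.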

Additional observations from a re-analysis of the deposited data

Results flagged for a closer look

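No ribosomal protein gene met a rule for a closer look, which for groups of 3 libraries was a response to IR that differed between genotypes. Genes named beside them did, by edgeR's test of the interaction over 12 libraries. The interaction, as the IR effect in the libraries labelled Tet2-/- minus that in WT on the log2 scale, was 1.52 for Eif4ebp1, 0.87 for Dkc1 and 1.11 for Ddx21 (adjusted p = 0.0394, 0.0401 and 0.0325, edgeR). It was -0.83 for Lamtor2, -1.45 for Lamtor5 and -0.96 for Nprl2, known to act on mTORC1 at the lysosome (adjusted p = 0.0372, 0.00395 and 0.0120, edgeR). Of the 26 mTORC1 genes 1 was called higher and 3 lower, beside 3.79% and 5.39% of all tested genes. Of other genes with that role, Rraga was at 0.48, Rragc at 0.38, Rragd at 0.42, Lamtor3 at 0.17, Lamtor1 at 0.0020 and Lamtor4 at -0.48, none of them called. For Tet2 it was -2.001 (SE 0.48, adjusted p = 0.0285, edgeR). Among mitochondrial ribosomal protein genes it was -0.73 for Mrpl4, -0.81 for Mrpl42, -1.24 for Mrps36 and -0.48 for Mrps5 (adjusted p = 0.0309, 0.0382, 0.0120 and 0.0467, edgeR).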

How the results depend on the processing

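The Rpl34 pair kept its calls in all 16 other fits of both genotype comparisons, and the count of 0 members called lower at baseline held in all of them. At baseline, dropping the pair left 0 members higher and dropping symbols with -ps left 1. After IR, 7 were higher with DESeq2 (which called 3287 of all 16186 genes in either direction) and with limma at either pseudocount, 2 without the pair, without genes that have an exact copy or past a log2 fold change of 1, and 2 to 4 with 1 library left out, while 1 was lower with DESeq2 and in the fit of all 12 libraries. In WT, IR gave 3 higher with DESeq2, 2 with limma on log2(FPKM + 0.1), 1 with log2(FPKM + 1), 1 in the fit of all 12 libraries and, with the replicate block, 1 higher and 1 lower, and the median was 0.029 to 0.28 with 1 library left out.

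With IR in the libraries labelled Tet2-/-, 41 were higher with the length offset (median 0.51), 29 with library sizes alone (3 lower, median 0.46), 29 and 27 with limma at pseudocounts of 0.1 and 1 (3 and 2 lower, medians 0.48 and 0.45). Past a log2 fold change of 1 there were 3 higher and 1 lower, without genes that have an exact copy 7 and 2, and with 1 library left out 4 to 15 higher, 2 to 6 lower and a median of 0.046 to 0.37. Same-numbered libraries correlated at 0.0803, 0.316 and 0.288 in this comparison, each library matched its own number best, and the replicate block gave 15 higher and 5 lower. In the interaction, 2 were higher with the replicate block and with limma at either pseudocount, 4 with the length offset, 1 with library sizes alone, and 1 was lower with DESeq2. With 1 library left out, 0 to 1 were lower there. As a share of summed FPKM in place of counts, the groups were at 2.56%, 2.66%, 3.02% and 4.10%. Apart from these scalings, the cause of each change was not tested. Whether changes the size of the members' medians could be called in single genes with 3 libraries a group was not tested.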
